A study of Mus musculus with 8 samples.

Results

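The genes described here are 10 mouse genes of fatty acid elongation and desaturation, taken by symbol from a table of 24940 genes: the elongases *Elovl1*, *Elovl2*, *Elovl3*, *Elovl5* and *Elovl6*, the desaturases *Fads1*, *Fads2*, *Fads3* and *Scd2*, and the dehydratase *Hacd2*. All 10 were in the table and all passed the filter on low counts. Polyadenylated RNA of whole liver was sequenced from male C57BL/6 mice of 2 genotypes with 4 livers each. All 8 mice were homozygous for a deleted *Fxr* (*Nr1h4*) in the whole body and for floxed *Bcl6*. *FxrKO* mice carried no Cre and kept *Bcl6*, and *Bcl6LKOFxrKO* mice also carried *Alb-Cre*, which is driven by the albumin promoter and deletes *Bcl6* in hepatocytes, so that other liver cells keep it. The labels name no agent, and the age of the mice and the hour of collection were not given in the sources used here. The study's methods allow mice fed at will or fasted for a few hours, without saying which these were.

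Fatty acids longer than palmitate are built in the endoplasmic reticulum by a cycle that adds a pair of carbons at a time. An elongase (ELOVL) condenses the acyl-CoA with malonyl-CoA, HSD17B12 reduces the product, a dehydratase (HACD) removes water and TECR reduces it again. Desaturases put in the double bonds with electrons from cytochrome b5: the SCD enzymes make monounsaturated fatty acids, and FADS2 and FADS1 alternate with ELOVL5 and ELOVL2 to turn dietary linoleic and alpha-linolenic acid into arachidonic and docosahexaenoic acid. In liver these genes are known to answer to SREBP-1c, LXR and PPARa, and *Elovl3* to sex and time of day. BCL6 is a transcriptional repressor and FXR the nuclear receptor for bile acids. The comparison of the genotypes asks how these transcripts differ when hepatocyte *Bcl6* is lost on top of *Fxr*.

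Of the 10 genes, 5 lie on chromosome 19. *Fads3*, *Fads2* and *Fads1* stand side by side within 155 kb (mm10, chr19:10041548-10196872), and *Fads2* and *Fads1* are transcribed away from each other from start sites 81.4 kb apart. Among the members with a called difference, *Elovl5* (lower) and *Fads2* (higher) had a promoter in the RefSeq table (GRCm38.p6). Their 250 bases before the start site are printed here because the transcripts moved in opposite directions, with matches to the motifs searched in capitals.
*Elovl5*, chr9:77917115-77917364, plus strand: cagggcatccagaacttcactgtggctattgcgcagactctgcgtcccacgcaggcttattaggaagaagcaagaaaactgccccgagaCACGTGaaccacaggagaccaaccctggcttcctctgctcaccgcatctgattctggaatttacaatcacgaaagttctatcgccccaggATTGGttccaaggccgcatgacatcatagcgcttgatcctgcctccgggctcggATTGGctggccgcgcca
*Fads2*, chr19:10101504-10101753, minus strand: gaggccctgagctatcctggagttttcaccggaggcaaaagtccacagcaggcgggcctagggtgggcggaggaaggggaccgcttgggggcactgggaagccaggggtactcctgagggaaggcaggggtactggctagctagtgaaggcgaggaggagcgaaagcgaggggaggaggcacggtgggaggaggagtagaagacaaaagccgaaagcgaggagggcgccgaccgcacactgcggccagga
The *Elovl5* window held the E-box CACGTG from 161 to 156 bases before the start site and 2 CCAAT boxes on the other strand (written ATTGG), from 71 to 67 and from 17 to 13 bases before it. The *Fads2* window held none of the 6 motifs searched on both strands, which were the CCAAT box, the E-box CACGTG, the sterol regulatory element TCACNCCAC, the STAT and BCL6 palindrome TTCNNNGAA, the nuclear receptor element AGGTCA and the TATA box TATAAA. Of 32851 mouse promoters cut to the same 250 bases, 33.8% held CCAAT, 6.02% CACGTG, 1.05% TCACNCCAC, 7.02% TTCNNNGAA, 14% AGGTCA and 12.4% TATAAA. Promoters of 7 of the 10 members matched the table (9 windows, since *Elovl1* and *Elovl2* have a pair each). *Fads3* held 2 CCAAT boxes, 1 *Elovl1* window held 1 CCAAT box and the other an AGGTCA element (written TGACCT), as did *Elovl6*, and *Elovl2* and *Hacd2* held no match. These are matches of letters, not measured binding sites.

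In *Bcl6LKOFxrKO* livers, *Fads1* and *Fads2* rose, *Elovl5* and *Elovl3* fell, and the other 6 members were not called. Calls were made at an adjusted p under 0.05 in the quasi-likelihood test of edgeR, adjusted by Benjamini and Hochberg's method over the 12340 genes that passed the filter. Of all genes tested, 16.2% were called higher (1994 genes) and 13.5% lower (1665 genes), so that 2 of 10 in each direction is near the share of all genes. The median log2 fold change (*Bcl6LKOFxrKO* over *FxrKO*) was -0.09 over the 10 members and 0.01 over all genes tested. It does not depend on the fitted value of *Elovl3*, which lies at the end of the order. The plot of the members by liver shows their levels as CPM, in which each liver's counts are set to the same library size with TMM factors.

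**Figure D1:**
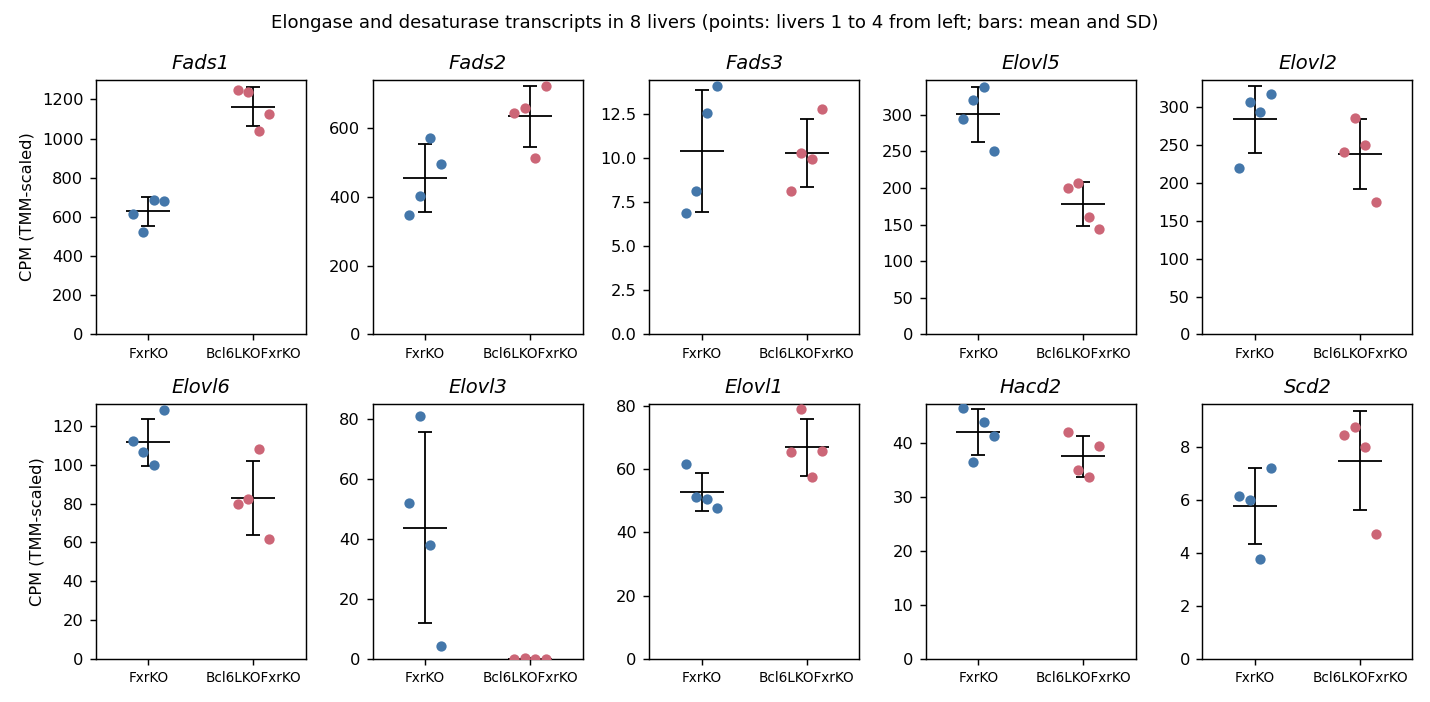
CPM of each of the 10 members in the 4 *FxrKO* and the 4 *Bcl6LKOFxrKO* livers on linear axes from 0. Points are single livers, numbered 1 to 4 from left to right in each genotype, the wide bar is the mean and the error bar the SD (n = 4). *Fads1* is the only member whose 4 *Bcl6LKOFxrKO* livers all lie above the *FxrKO* livers, and *Elovl5* and *Elovl3* are the only ones whose livers all lie below.

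Totals on genes were between 7586241 and 11839503 counts per liver, so that 3 counts, taken as the floor, stand for 0.272 to 0.374 CPM, which covers counting error only. The 50 most counted genes took 31.2 to 32.6% of the counts in *FxrKO* livers and 41.7 to 45.1% in *Bcl6LKOFxrKO* livers, and scaling by total counts alone moves all log2 fold changes by a median of -0.16. *Bcl6* was lower in all 4 *Bcl6LKOFxrKO* livers, at 7.43 ± 3.23 against 49.5 ± 19.4 CPM (SD, n = 4, log2 fold change -2.72, edgeR adjusted p = 0.00124). *Nr1h4* was still counted in both genotypes, at 59.9 ± 2.46 CPM in *FxrKO* and 43.4 ± 3.69 in *Bcl6LKOFxrKO* livers (SD, n = 4, log2 fold change -0.46, edgeR adjusted p = 0.00498), and no liver with intact *Fxr* was analysed here. Each liver is a separate mouse by its number in the labels, and the labels name no batch.

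*Fads1* (NM_146094, chr19:10182888-10196872), the delta-5 desaturase that makes arachidonic and eicosapentaenoic acid, was at 616, 524, 687 and 682 CPM in *FxrKO* livers 1 to 4. In *Bcl6LKOFxrKO* livers 1 to 4 it was at 1250, 1239, 1040 and 1125 CPM. The lowest *Bcl6LKOFxrKO* liver stood well above the highest *FxrKO* liver. Its log2 fold change was 0.89 (standard error 0.13, 95% interval 0.61 to 1.17, edgeR adjusted p = 0.000216), from 627 ± 76.0 to 1163 ± 99.8 CPM (SD, n = 4), or 1.85-fold. A two-sided exact permutation test of the 8 CPM values gave p = 0.029, the smallest that the 70 orderings of 4 against 4 livers can give. *Fads1* was called under all 15 alternatives tried, with log2 fold changes between 0.73 and 0.94. It was the 1 member of 10 that was higher without overlap, as were 16.1% of all genes tested.

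*Fads2* (NM_019699, chr19:10064164-10101503), the delta-6 desaturase and first step of the same pathway, was at 348, 403, 571 and 495 CPM in *FxrKO* livers and at 645, 657, 512 and 721 CPM in *Bcl6LKOFxrKO* livers. *Bcl6LKOFxrKO* liver 3 lay below *FxrKO* liver 3, so the groups overlapped. The log2 fold change was 0.48 (standard error 0.16, 95% interval 0.13 to 0.83, edgeR adjusted p = 0.0411), a 1.39-fold higher mean, and the exact permutation test gave p = 0.057. This call rested on single livers: it was lost without any 1 of *FxrKO* livers 1, 2 or 4 or *Bcl6LKOFxrKO* livers 1, 2 or 4 (log2 fold change 0.37 to 0.52, edgeR adjusted p = 0.0591 to 0.119). It was also lost with scaling by total counts alone (0.32, edgeR adjusted p = 0.139). *Fads3* (NM_021890, chr19:10041548-10059671), the third gene of the cluster, was low, at 6.86 to 14.1 CPM in *FxrKO* and 8.15 to 12.8 CPM in *Bcl6LKOFxrKO* livers. The groups overlapped in full, and its log2 fold change of -0.02 had a 95% interval of -0.51 to 0.48 (edgeR adjusted p = 0.959).

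*Elovl5* (NM_134255, chr9:77917365-77984519), which elongates the polyunsaturated products of FADS2 and FADS1, went the other way. It was at 294, 320, 338 and 251 CPM in *FxrKO* livers and at 199.9, 207, 160 and 145 CPM in *Bcl6LKOFxrKO* livers. The groups did not overlap. The log2 fold change was -0.76 (standard error 0.14, 95% interval -1.07 to -0.45, edgeR adjusted p = 0.00155), and means fell from 301 ± 37.6 to 178 ± 30.3 CPM (SD, n = 4, exact permutation p = 0.029). *Elovl5* was called under all 15 alternatives. *Elovl5* and *Elovl3* were the 2 members without overlap and lower, as were 15.2% of all genes tested.

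*Elovl2* (NM_019423, chr13:41182382-41220403), which takes long polyunsaturated acids further toward docosahexaenoic acid, was at 219.8, 307, 294 and 318 CPM in *FxrKO* livers. It was at 241, 286, 251 and 175 CPM in *Bcl6LKOFxrKO* livers, and the groups overlapped. The log2 fold change of -0.26 had a 95% interval of -0.60 to 0.09 (edgeR adjusted p = 0.246), so a fall of the size seen for *Elovl5* lay outside the interval, while no difference lay inside it.

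**Figure D2:**
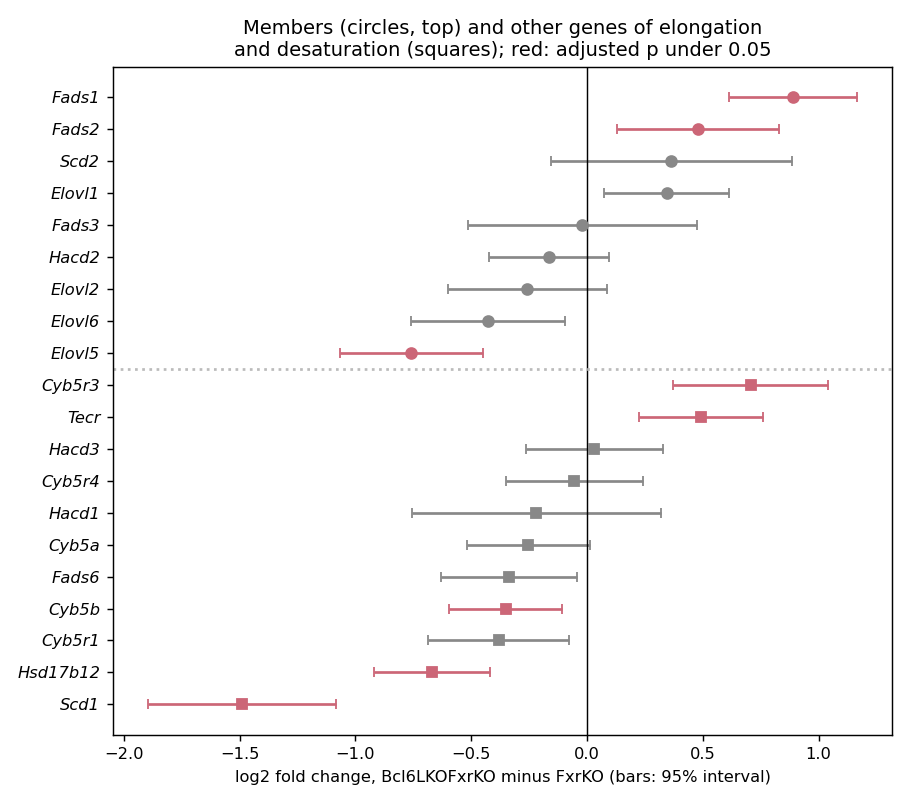
Log2 fold changes (*Bcl6LKOFxrKO* minus *FxrKO*) with 95% intervals derived from the edgeR test for 9 members (circles) and 11 other tested genes of elongation and desaturation (squares), each group sorted by value. Red marks an edgeR adjusted p under 0.05. *Elovl3* (-9.42) is left off the axis because its fitted value depends on the prior count. The called values run from 0.89 for *Fads1* down to -1.49 for *Scd1*.

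*Elovl3* (NM_007703, chr19:46131899-46135694), an elongase of saturated and monounsaturated acids up to very long chains, was all but lost. It had 499, 649, 354 and 44 counts in *FxrKO* livers 1 to 4 and 1, 1, 0 and 0 counts in *Bcl6LKOFxrKO* livers 1 to 4. *FxrKO* liver 4 stood far below the other three at 4.16 CPM, against 38.0 to 81.0 CPM, yet above every *Bcl6LKOFxrKO* liver. Scaled for library size, *Elovl3* was 813 times as abundant in *FxrKO* as in *Bcl6LKOFxrKO* livers (95% exact interval 225 to 6723, for counting error only, from 1546 against 2 counts). Taken alone, *FxrKO* liver 4 gave a ratio of 82.1 (21.4 to 699). The difference was called (edgeR adjusted p = 0.00365, fitted log2 fold change -9.42 with a 95% interval of -12.97 to -5.86, which depends on the prior count, and exact permutation p = 0.029). With at least 10 counts required in every liver *Elovl3* is not tested, and it was called under the other 14 alternatives.

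The spread of *Elovl3* among *FxrKO* livers was the widest of the members, at a coefficient of variation of 72.9% against 10.2 to 33.3% for the other 9. *Clock* genes also differed among these livers. *Arntl* (*Bmal1*), the activator of the clock, was at 4.47, 5.74, 0.97 and 1.32 CPM in *FxrKO* livers 1 to 4. *Per2*, a repressor of the clock, was at 15.7, 15.3, 36.7 and 44.8 CPM, and *Ciart*, another repressor, at 5.72, 6.99, 23.4 and 46.4 CPM in the same order. Livers 3 and 4, with the lower *Elovl3*, had the lower *Arntl* and the higher *Per2* and *Ciart*. *Bcl6LKOFxrKO* livers spanned a wider range in *Arntl*, at 14.9, 4.97, 1.46 and 1.09 CPM, with *Elovl3* at 0 or 1 count in each. The part of collection time in the *Elovl3* values was not tested.

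*Elovl6* (NM_130450, chr3:129532386-129638493), which turns palmitate into stearate, was at 112, 107, 99.7 and 128 CPM in *FxrKO* livers. In *Bcl6LKOFxrKO* livers it was at 79.97, 82.4, 108 and 61.9 CPM, so that liver 3 alone lay among the *FxrKO* values. The log2 fold change was -0.43 (standard error 0.15, 95% interval -0.76 to -0.09) and missed the threshold at edgeR adjusted p = 0.0525 (exact permutation p = 0.086). It passed under 6 of 15 alternatives, among them without *Bcl6LKOFxrKO* liver 3 (-0.58, edgeR adjusted p = 0.00913), DESeq2 (-0.43, DESeq2 adjusted p = 0.0464) and total counts alone (-0.58, edgeR adjusted p = 0.0147). *Elovl1* (NM_019422, chr4:118428093-118432952), which makes saturated acids of very long chain for sphingolipids, was at 61.5, 51.2, 50.4 and 47.7 CPM in *FxrKO* livers and 65.6, 79.0, 57.5 and 65.7 CPM in *Bcl6LKOFxrKO* livers. The groups overlapped only through *FxrKO* liver 1, which lay above *Bcl6LKOFxrKO* liver 3. Its log2 fold change was 0.34 (standard error 0.13, 95% interval 0.07 to 0.61, edgeR adjusted p = 0.0545, exact permutation p = 0.057), and it passed under 4 of 15 alternatives, including those without either of these livers (edgeR adjusted p = 0.0326 and 0.0322). *Elovl1* shares 53 exonic bases with *Cdc20* on the other strand, whose whole count was 7 to 61 per liver against 410 to 724 for *Elovl1*.

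*Hacd2* (NM_023587, chr16:35022421-35109175), which takes the water from the growing chain, was among the steadiest members, at 36.6 to 46.7 CPM in *FxrKO* and 33.8 to 42.0 CPM in *Bcl6LKOFxrKO* livers. Its log2 fold change was -0.16 (95% interval -0.42 to 0.09, edgeR adjusted p = 0.324). *Scd2* (NM_009128, chr19:44293676-44306862), a stearoyl-CoA desaturase that is more a gene of brain than of adult liver, was at 3.76 to 7.18 CPM in *FxrKO* and 4.72 to 8.73 CPM in *Bcl6LKOFxrKO* livers (log2 fold change 0.36, 95% interval -0.16 to 0.88, edgeR adjusted p = 0.279). *Scd2* had 35 to 84 counts per liver.

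Levels can be compared between genes only per transcript length, here as RPKM from the lengths in the deposited table. In *FxrKO* livers the order of mean RPKM was *Fads2* 304, *Fads1* 182, *Elovl5* 108, *Elovl2* 74.4, *Elovl1* 29.3, *Elovl3* 23.4, *Elovl6* 18.8, *Hacd2* 11.7, *Fads3* 3.20 and *Scd2* 1.06. The neighbours *Elovl1* and *Elovl3*, and *Elovl3* and *Elovl6*, overlapped between livers, and the other neighbours did not. In *Bcl6LKOFxrKO* livers *Elovl3* moved to the end of the order at 0.0296 RPKM and the rest kept their order, with overlap between *Fads2* (424) and *Fads1* (338), *Elovl5* (64.2) and *Elovl2* (62.2), and *Elovl6* (14.0) and *Hacd2* (10.5). The order of *Fads2* and *Fads1* depends on the length by which the counts are divided. The table counts *Fads2* on 1494 bases, whereas the GENCODE transcript matched to the same RefSeq entry has 3150. With GENCODE lengths, an alternative chosen after seeing the data, the mean of *Fads1* (181 and 336 RPKM) lay above that of *Fads2* (144 and 201 RPKM) in both genotypes, with overlap between livers in *FxrKO* only. The counts were not taken anew on the longer transcript, so dividing them by 3150 can understate *Fads2*. The GENCODE values therefore cannot decide the order.

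Summed per length, the 5 elongases fell from 254 ± 26.3 to 178 ± 25.9 RPKM, while *Fads1*, *Fads2* and *Fads3* together rose from 490 ± 84.1 to 765 ± 78.6 RPKM (SD, n = 4), in both cases with no overlap between genotypes. The fall was not shared by all 5 elongases: mean RPKM went from 108 to 64.2 for *Elovl5* and from 23.4 to 0.0296 for *Elovl3*. *Elovl1*, which was not called, went from 29.3 to 37.2. These sums and the shares below are descriptions of values already tested singly. Within the elongases, *Elovl1* took 9.96 to 14.0% of the sum in *FxrKO* livers and 18.4 to 25.2% in *Bcl6LKOFxrKO* livers, a share that also grows because the sum is smaller. The share of *Elovl5* was 42.6 ± 2.74% in *FxrKO* and 36.1 ± 2.33% in *Bcl6LKOFxrKO* livers, and its groups overlapped once counts were not divided by length. *Elovl3* held 0.99 to 15.2% in *FxrKO* livers and at most 0.0312% in *Bcl6LKOFxrKO* livers. The shares of *Elovl2* and *Elovl6* overlapped between genotypes. Within the desaturases the shares of *Fads1* and *Fads2* overlapped, at 37.6 ± 3.97% in *FxrKO* and 44.3 ± 2.85% in *Bcl6LKOFxrKO* livers for *Fads1* (SD, n = 4). With GENCODE lengths *Fads1* held the larger part, at means of 55.5% and 62.3%, still with overlap. These shares carry the same limit, since the division can understate *Fads2*.

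**Figure D3:**
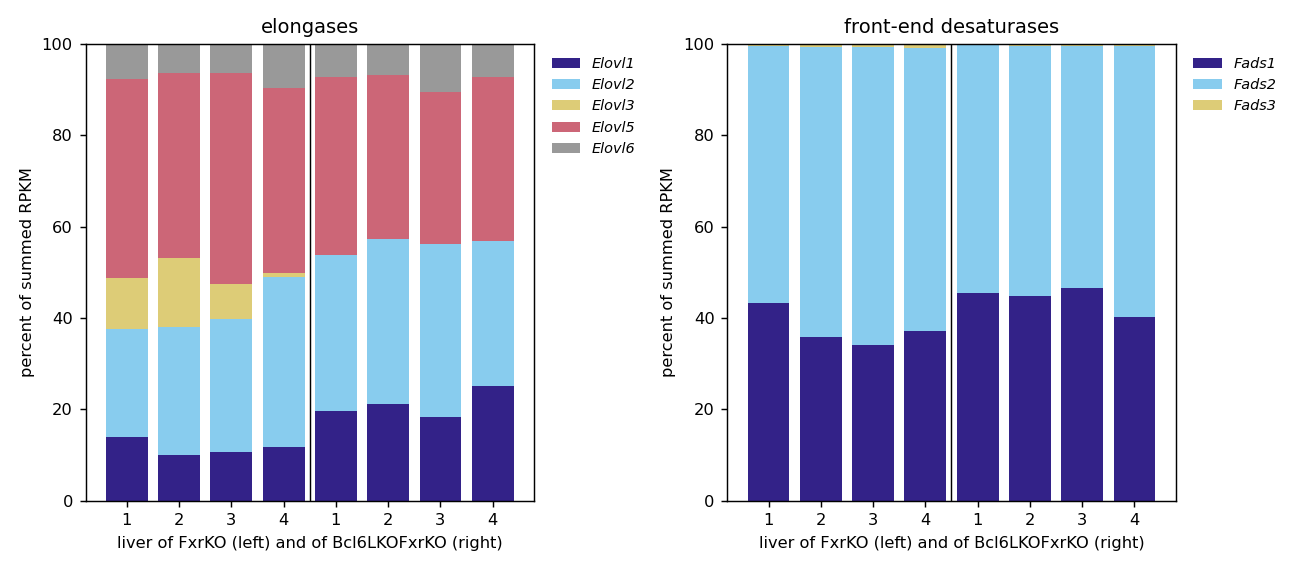
Stacked bars of each member's percent of the summed RPKM of its family in each liver, *FxrKO* livers 1 to 4 left of the line and *Bcl6LKOFxrKO* livers 1 to 4 right of it. Left, the 5 elongases: the share of *Elovl3* disappears and that of *Elovl1* is 18.4 to 25.2% in *Bcl6LKOFxrKO* livers against 9.96 to 14.0% in *FxrKO* livers. Right, *Fads1*, *Fads2* and *Fads3*, where *Fads1* and *Fads2* hold nearly the whole sum in each liver.

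Since the desaturases and *Elovl5* act in turn on the same acids, their ratio within a liver was also taken, which does not depend on the scaling of the library. The *Fads1* to *Elovl5* ratio of RPKM was 1.69, 1.32, 1.64 and 2.19 in *FxrKO* livers and 5.03, 4.82, 5.24 and 6.26 in *Bcl6LKOFxrKO* livers, a 3.13-fold higher mean with no overlap. The *Fads2* to *Elovl5* ratio was 2.20 to 3.66 in *FxrKO* and 5.89 to 9.24 in *Bcl6LKOFxrKO* livers, again with no overlap, although *Fads2* itself overlapped. *Bcl6LKOFxrKO* liver 4 gave the value of 9.24, and the other three lay between 5.89 and 5.98. The *Fads1* to *Elovl2* ratio was 1.90 to 3.11 in *FxrKO* and 4.61 to 7.12 in *Bcl6LKOFxrKO* livers. The *Fads1* to *Fads2* ratio (0.52 to 0.77 against 0.68 to 0.88) and the *Elovl2* to *Elovl5* ratio (0.54 to 0.92 against 0.87 to 1.14) overlapped. With GENCODE lengths the *Fads1* to *Fads2* ratio was above 1 in every liver, at 1.10 to 1.61 in *FxrKO* and 1.42 to 1.85 in *Bcl6LKOFxrKO* livers, and still overlapped. This ratio can be overstated, since the counts of *Fads2* were not taken anew on the longer transcript. The ratios are given without a test, because their parts were chosen with the single values known.

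**Figure D4:**
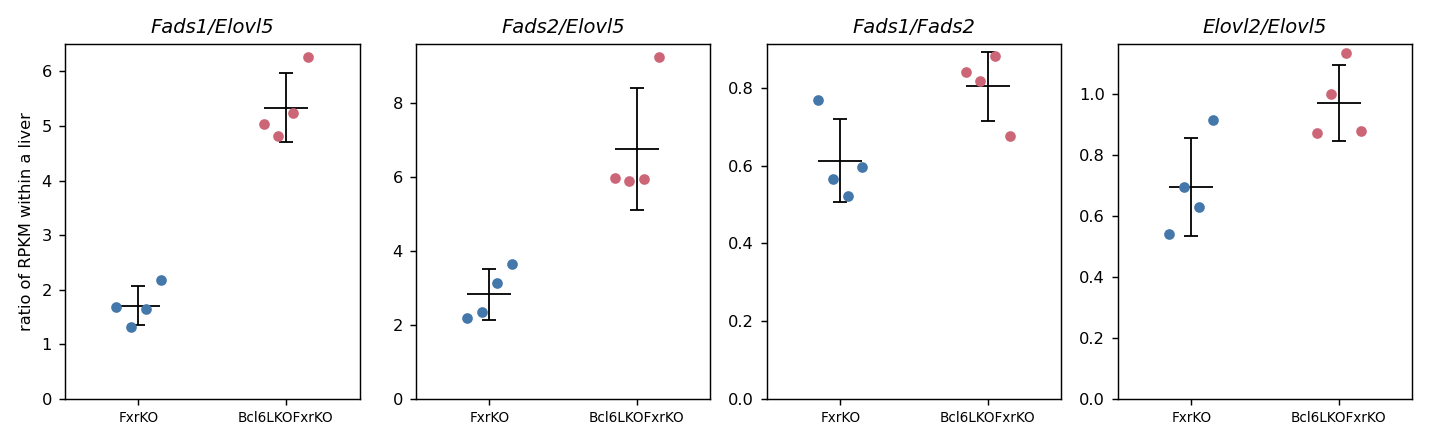
Ratios of RPKM within each liver, with points for livers 1 to 4 from left to right and bars for the mean and SD (n = 4) of each genotype, on linear axes from 0. The *Fads1* to *Elovl5* and *Fads2* to *Elovl5* ratios do not overlap between genotypes, and the *Fads1* to *Fads2* and *Elovl2* to *Elovl5* ratios do.

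Among the other genes of the elongation cycle, 1 of 4 tested rose, 1 fell and 2 were not called. Beside the counts of this list and the following ones, 16.2% of all genes tested were called higher and 13.5% lower. *Tecr*, the enoyl reductase of the last step, rose from 157 ± 18.7 to 220.4 ± 25.1 CPM (SD, n = 4, log2 fold change 0.49, edgeR adjusted p = 0.00955), a call lost with total counts alone (0.33, edgeR adjusted p = 0.0584). *Hsd17b12*, the ketoreductase of the second step, fell from 193 ± 17.3 to 122 ± 12.3 CPM (SD, n = 4, log2 fold change -0.67, edgeR adjusted p = 0.000831), a size like that of *Elovl5*. The dehydratases *Hacd1* and *Hacd3* were at log2 fold changes of -0.22 and 0.03, and *Elovl4*, *Elovl7* and *Hacd4* did not pass the filter.

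Of 7 other genes of desaturation tested, 1 rose, 2 fell and 4 were not called. *Scd1*, the main delta-9 desaturase of adult liver, fell from 6074, 6290, 10399 and 7906 CPM to 2985, 2943, 2093 and 2912 CPM. The groups were far apart, and the log2 fold change was -1.49 (SE 0.19, edgeR adjusted p = 7.75e-05). The ratio of *Scd1* to *Scd2*, given without a test, was 1117 to 3120 in *FxrKO* and 296 to 696 in *Bcl6LKOFxrKO* livers. The *Fads2* to *Scd1* ratio was 0.18 to 0.21 in *FxrKO* and 0.70 to 0.80 in *Bcl6LKOFxrKO* livers, with no overlap. *Cyb5r3*, a reductase that passes electrons to cytochrome b5, rose (log2 fold change 0.71, edgeR adjusted p = 0.00426), and *Cyb5b*, the cytochrome b5 of the mitochondrial outer membrane, fell (-0.35, edgeR adjusted p = 0.0335). *Cyb5a*, the other cytochrome b5 gene of the list, was at 1014 ± 60.5 and 851 ± 103 CPM (SD, n = 4). It was lower without overlap but not called (-0.25, edgeR adjusted p = 0.143). The call of *Cyb5b* was lost without any 1 of *FxrKO* livers 1 to 4 or *Bcl6LKOFxrKO* livers 1 or 3 (edgeR adjusted p = 0.0502 to 0.0924).

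Acyl-CoA synthetases charge fatty acids for these enzymes, and lysophospholipid acyltransferases place the products in membranes. Of 10 such genes tested, *Acsl5* rose (log2 fold change 0.54, edgeR adjusted p = 0.00394), *Acsl1* fell (-0.60, edgeR adjusted p = 0.00464), and 8 were not called. *Lpcat3*, which puts polyunsaturated acids into phosphatidylcholine, was at 119 ± 14.4 and 127 ± 18.2 CPM (SD, n = 4, log2 fold change 0.10, edgeR adjusted p = 0.599). Docosahexaenoic acid is finished by a round of shortening in peroxisomes, and of 9 genes of that step 1 rose, 4 fell and 4 were not called. *Scp2*, the peroxisomal thiolase and sterol carrier, fell (log2 fold change -1.45, edgeR adjusted p = 6.06e-06), as did the transporter *Abcd3* (-0.98, edgeR adjusted p = 0.000183) and *Decr2*, a peroxisomal dienoyl-CoA reductase (-0.80, edgeR adjusted p = 0.000347). The related transporter *Abcd2* rose (2.31, edgeR adjusted p = 0.000697).

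The regulators of lipogenesis and the enzymes that make palmitate, the substrate of elongation, split evenly, with 6 of 20 higher, 6 lower and 8 not called. *Fasn*, the synthase that makes palmitate, was at 463 ± 80.1 and 424.5 ± 59.8 CPM (SD, n = 4, log2 fold change -0.12, 95% interval -0.44 to 0.19, edgeR adjusted p = 0.558). *Srebf1*, the gene of SREBP-1c, was at 98.2, 139, 229 and 245 CPM in *FxrKO* livers and at 102, 70.2, 147 and 83.0 CPM in *Bcl6LKOFxrKO* livers. Its groups overlapped, with a log2 fold change of -0.82 (95% interval -1.57 to -0.07, edgeR adjusted p = 0.094), which was called under 3 of 15 alternatives. *Mid1ip1*, an activator of acetyl-CoA carboxylase, *Mlxipl*, the gene of ChREBP, and *Rxra*, the partner of LXR and PPARa, fell (log2 fold changes -1.31, -1.08 and -0.60, edgeR adjusted p = 0.000432, 0.000485 and 0.00365). *Acacb*, which makes the malonyl-CoA that restrains mitochondrial fatty acid uptake, *Nr1h2*, 1 of the LXR genes, and the lipid-droplet gene *Pnpla3* rose (1.05, 0.55 and 2.21, edgeR adjusted p = 0.000326, 0.00376 and 0.01). *Nr1h3*, the other LXR gene, was not called (-0.01, edgeR adjusted p = 0.95). It was at mean RPKM of 68.3 in *FxrKO* and 67.6 in *Bcl6LKOFxrKO* livers, against 19.4 and 28.4 for *Nr1h2*.

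Of 16 genes of the PPARa list, 2 rose, 6 fell and 8 were not called. *Ppara* itself fell from 258 ± 38.1 to 130 ± 33.9 CPM (SD, n = 4, log2 fold change -0.99, edgeR adjusted p = 0.00104), with *Acadm* and *Cpt1a* of mitochondrial oxidation (-0.55 and -0.89, edgeR adjusted p = 0.0012 and 0.00183). *Fgf21* and *Pdk4* rose (3.01 and 2.25, edgeR adjusted p = 0.00192 and 0.00523), the first from 0 to 0.73 CPM in *FxrKO* livers to 1.56 to 3.62 CPM. Of 15 clock genes, 2 fell, *Hlf* (-1.50, edgeR adjusted p = 0.00012) and *Per2* (-1.57, edgeR adjusted p = 0.0468), and 13 were not called. Of 8 genes that follow feeding, the gluconeogenic *Pck1* fell (-1.61, edgeR adjusted p = 0.00215), the insulin receptor substrate *Irs2* rose (1.35, edgeR adjusted p = 0.038) with overlapping groups, and 6 were not called. The call of *Per2* was lost without any 1 of *FxrKO* livers 3 or 4 or *Bcl6LKOFxrKO* livers 1, 2 or 4 (edgeR adjusted p = 0.0674 to 0.115). That of *Irs2* was lost without any 1 of *FxrKO* livers 1, 3 or 4 or *Bcl6LKOFxrKO* livers 1 or 3 (edgeR adjusted p = 0.0681 to 0.0867).

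Whole liver holds several cell types, and in bulk RNA fewer cells of a type and less RNA per cell cannot be told apart. The hepatocyte markers were abundant in all livers. Of 9 tested, 3 were called higher, with the largest fold for *Alb* (log2 fold change 1.60, edgeR adjusted p = 1.86e-06). *Ttr* and *Apob* were called lower (-0.76 and -0.45, edgeR adjusted p = 0.00219 and 0.0448). The 4 not called also had log2 fold changes below 0, so that 6 of the 9 were lower. Of the 12 stellate markers 9 rose and 3 were not called, led by *Lum* (1.18, edgeR adjusted p = 0.00281), and their summed level went from 239 to 334 CPM in *FxrKO* livers to 482 to 599.8 CPM in *Bcl6LKOFxrKO* livers. Macrophage markers were called higher in 3 of 11 genes, with overlapping sums (393 to 557 against 544 to 878 CPM, *Ccr2* leading). The other 8 were not called, and 1 of these was lower. Endothelial markers were called higher in 1 of 10, also with overlapping sums (209.8 to 289 against 269 to 348 CPM, *Stab2*). Of the 9 not called, 3 were lower. Cholangiocyte markers were called higher in 2 of 5 tested, *Krt19* and *Spp1* (58.6 to 85.6 against 92.4 to 157 CPM in sum). *Spp1* made up most of these sums, at 36.6 to 53.6 CPM in *FxrKO* and 66.1 to 123 CPM in *Bcl6LKOFxrKO* livers. *Krt19* was at 0.54 to 2.08 and 1.65 to 3.08 CPM. Of the tested cholangiocyte markers not called 1 was lower, and 2 of the 10 listed had no more than 3 counts in every liver. Of all genes tested, 16.2% were called higher. The call of *Ccr2* was lost without any 1 of *FxrKO* livers 2, 3 or 4 or *Bcl6LKOFxrKO* livers 1, 2 or 3 (edgeR adjusted p = 0.0546 to 0.107). That of *Krt19* was lost without any 1 of *FxrKO* livers 2, 3 or 4 or *Bcl6LKOFxrKO* livers 1, 2 or 4 (edgeR adjusted p = 0.0524 to 0.0807). Genes of dividing cells rose in 3 of 5 tested, led by *Mki67* (1.87, edgeR adjusted p = 0.000367, 11.2 to 14.9 against 19.2 to 35.0 CPM in sum), and no lymphocyte marker passed the filter (2.995 to 5.58 against 5.83 to 11.1 CPM in sum). The part of these cells in the values of the 10 members was not tested.

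**Figure D5:**
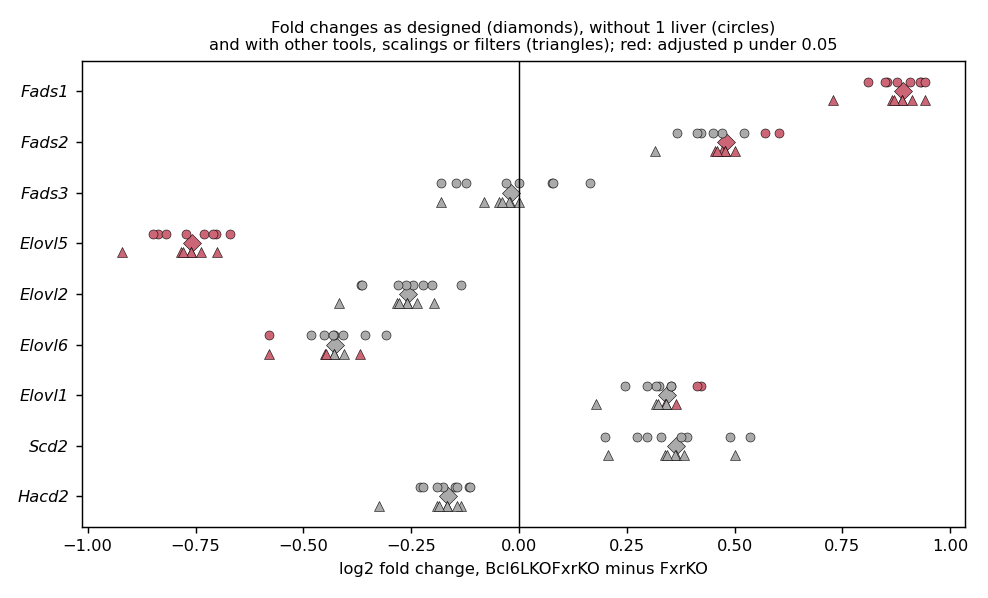
Log2 fold changes (*Bcl6LKOFxrKO* minus *FxrKO*) of 9 members as designed (diamonds), with 1 liver left out (circles) and with another tool, scaling or filter (triangles). Red marks an adjusted p under 0.05 from the tool used. *Fads1* (0.73 to 0.94) and *Elovl5* (-0.92 to -0.67) are red throughout, *Fads2* (0.32 to 0.60) loses its call under 7 of 15 alternatives, and *Fads3* lies on both sides of 0.

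The plot of the alternatives sets the members side by side. *Fads1* and *Elovl5* were called under every alternative, and *Elovl3* under every one in which it was tested. *Elovl1* and *Elovl6* lay at the threshold, with adjusted p between 0.0322 and 0.263 for *Elovl1* and between 0.00913 and 0.142 for *Elovl6*. *Elovl2*, *Fads3*, *Scd2* and *Hacd2* had adjusted p of at least 0.0568 under the 15 alternatives.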

How the data were processed

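Liver RNA-seq of 4 *FxrKO* and 4 *Bcl6LKOFxrKO* mice was used, grouped by the sample labels. Per the labels and methods, single-end reads of 100 bases were mapped by the authors with STAR 2.5.2 (genome mm10, a single location, no more than 4 mismatches). HOMER 4.10 then counted them on exons, and the deposited table holds these unnormalized counts with the length of 1 transcript for each gene. The library kit keeps strand, but the counting is not stated to use it, so genes with overlapping exons cannot be separated. *Elovl1*, *Elovl3*, *Elovl6*, *Hacd2* and *Scd2* share between 10 and 61 exonic bases with another gene.

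Counts were tested in R 4.3.3 with edgeR 4.0.16 (filterByExpr, TMM, robust quasi-likelihood fits), adjusted over the 12340 genes that passed of 24940, and called at an adjusted p under 0.05. The fit was also run on simulated counts with known changes, built without the shift seen here in the most counted genes. That run cannot show how the fit handles this shift. Single genes were also compared by a two-sided exact permutation test over all 70 orderings. CPM used the TMM factors, and RPKM divided them by the deposited length. Totals were 7586241 to 11839503 counts per liver.

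The members and the 15 gene lists were chosen with earlier results of these data known. Named were all 10 members, *Bcl6*, *Nr1h4*, *Scd1*, *Srebf1* and *Ppara*, of each pathway list the 3 called genes of lowest adjusted p among those higher and the 3 among those lower, and of each marker list the called gene with the largest fold. The rule was applied to the lists as reported, since a few of their genes are not reported here. *Arntl*, *Ciart*, *Cdc20*, *Fasn*, *Lpcat3*, *Hacd1*, *Hacd3*, *Elovl4*, *Elovl7*, *Hacd4*, *Ttr*, *Apob*, *Spp1*, *Nr1h3* and *Cyb5a* were named after their values were seen. Alternatives were DESeq2 1.42.0, limma 3.58.1 voom with sample weights, RLE size factors, scaling by total counts alone, a fit with no filter, a minimum of 10 counts in each liver, the 50 most counted genes left out and each liver left out. GENCODE transcript lengths were added after seeing the data and divide the deposited counts, which were not taken anew. Promoters came from RefSeq.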

Additional observations from a re-analysis of the deposited data

Results flagged for a closer look

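In groups of 4 livers, 1 liver stood apart from the other 3 (Dixon's ratio of its gap to the range of the group, above the 95% critical value) in 7 of 134 comparisons, where chance gives about 7. *Scd1* in *Bcl6LKOFxrKO* liver 3 had a ratio of 0.918, at 2093 CPM against 2912 to 2985. The share of *Elovl6* among the elongases in the same liver had a ratio of 0.849, at 10.5% against 6.70 to 7.27%. *Mlxipl* in *Bcl6LKOFxrKO* liver 2 had a ratio of 0.875, at 218 CPM against 143 to 152. *Krt19* in *FxrKO* liver 1 had a ratio of 0.858, at 2.08 CPM against 0.54 to 0.76. The *Fads2* to *Elovl5* ratio of RPKM in *Bcl6LKOFxrKO* liver 4 had a ratio of gap to range of 0.974, at 9.24 against 5.89 to 5.98. The *Scd1* to *Scd2* ratio in *FxrKO* liver 3 had one of 0.938, at 3120 against 1117 to 1241. The summed RPKM of *Fads1*, *Fads2* and *Fads3* in *Bcl6LKOFxrKO* liver 3 had one of 0.902, at 647 against 797 to 813.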

How the results depend on the processing

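Of 149 values of the 10 members under the alternatives, 128 kept direction and side of the threshold, 7 lost the call (all of *Fads2*), 10 gained it (*Elovl1* and *Elovl6*) and 4 changed sign. The 4 are *Fads3*, with log2 fold changes of 0.000993 where each liver had to hold at least 10 counts, 0.0762 and 0.164 without *FxrKO* livers 3 and 4, and 0.0781 without *Bcl6LKOFxrKO* liver 1 (range with 1 liver left out -0.18 to 0.16). Of 520 values of the other genes named by the rule, 484 kept both, 33 lost the call, 3 gained it (all of *Srebf1*) and none changed sign. Members called higher were 1 with total counts alone, and 1 to 3 with 1 liver left out (1 without *FxrKO* liver 2 or 4, or *Bcl6LKOFxrKO* liver 1, 2 or 4). Members called lower were 1 when each liver had to hold at least 10 counts, where *Elovl3* is not tested, and 2 to 3 with 1 liver left out. With total counts alone, 2956 of all tested genes were called lower, against 1665 with TMM. Without division by length the share of *Elovl1* among the elongases rose by 5.29 percentage points. *Scd1* and *Alb* have no value with the 50 most counted genes left out, being among them. No paired analysis was possible because the labels share no replicate number between genotypes and name no pairs. *Scd2* and *Fads3* had the fewest counts among the members other than *Elovl3*, fewer than 150 in every liver.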
